A study of Mus musculus with 18 samples.

Results

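The genes described here are 7 members of the regulator of G protein signalling (RGS) family, Rgs1, Rgs2, Rgs3, Rgs10, Rgs14, Rgs16 and Rgs19, found by Ensembl identifier among the 55487 genes of the deposited count table. The list was selected on the 0 h read counts, where Rgs16 had one of the largest differences between the sorted populations, so the 0 h difference between the populations is given for all 7 genes as a description without a test. The same holds for the change of Rgs16 between 0 h and 24 h. Spleens and lymph nodes of WT C57BL/6J mice gave the CD8+ T cells. They were sorted into a 41BB+ population, which the study calls Tpam, and a 41BB- population, which it calls conventional. 41BB, also known as CD137, is a costimulatory receptor of activated T cells encoded by Tnfrsf9. RNA was extracted without culture (0 h) or after 24 h or 72 h with beads that carry antibodies to CD3 and CD28 and activate T cells through the antigen receptor. All cultured cells of both populations received the beads, so no group was cultured without them. The 6 groups were thus 41BB+ and 41BB- cells at 0 h, at 24 h and at 72 h, each with 3 libraries of bulk RNA sequencing. The libraries are called biological triplicates by the study. The labels do not say if animals were pooled.

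RGS proteins bind the active, GTP-bound alpha subunits of heterotrimeric G proteins and speed up their hydrolysis of GTP, which ends the signal from a G protein-coupled receptor. In lymphocytes they are best known for limiting the response to chemokines and sphingosine 1-phosphate, whose receptors signal mainly through alpha subunits of the Gi class. Rgs1, Rgs2, Rgs3 and Rgs16 belong to the R4 subfamily, most of whose members are little more than the RGS domain. Rgs2 differs from most of the others in that it acts mainly on alpha subunits of the Gq class. Rgs10 and Rgs14 belong to the R12 subfamily. Rgs10 is a short protein abundant in immune cells, and Rgs14 also carries Ras-binding segments and a GoLoco motif, which holds alpha subunits in their inactive form. Rgs19 belongs to the RZ subfamily and was first described as a binding partner of an inhibitory alpha subunit.

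On GRCm38, in the GENCODE M21 annotation, 3 of the 7 genes lie on chromosome 1. Rgs2 occupies chr1:143999338-144004161 on the minus strand and Rgs1 chr1:144242296-144249242 on the same strand, with 238 kb between them. They are part of a run of 5 RGS genes spanning 776 kb that also holds Rgs13, Rgs21 and Rgs18. Rgs16 lies at chr1:153740349-153745468 on the plus strand, 40 kb from its neighbour Rgs8. Rgs3 (chr4:62559847-62704001, plus strand), Rgs10 (chr7:128373621-128418758, minus strand), Rgs14 (chr13:55369732-55384687, plus strand) and Rgs19 (chr2:181688419-181693977, minus strand) stand elsewhere. Rgs16 shares 236 exon bases with the antisense gene Gm28513, which had 36 counts over all libraries against 1785 for Rgs16, and without a stated strand setting the reads of the pair cannot be told apart. Gm11209 overlaps Rgs3 and Gm15503 overlaps Rgs10, in both cases without a shared exon base.

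The promoters of Rgs16 and Rgs2 are shown because, among the 7 genes, these had the most positive and the most negative 0 h difference between the populations. RefSeq (GRCm38.p6) held a promoter for 5 of the 7 genes. The stretches run 5′ to 3′ on the gene's strand from 250 to 21 bases before the RefSeq start. They are chr1:153740103-153740332 (plus strand) for Rgs16 and chr1:144004170-144004399 (minus strand) for Rgs2, and the capitals mark matches to the cyclic AMP response element core TGACG on either strand.
Rgs16: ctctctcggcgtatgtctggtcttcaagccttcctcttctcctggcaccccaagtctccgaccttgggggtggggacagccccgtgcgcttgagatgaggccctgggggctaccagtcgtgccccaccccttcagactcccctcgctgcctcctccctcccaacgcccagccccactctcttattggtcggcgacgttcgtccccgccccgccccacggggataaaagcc
Rgs2: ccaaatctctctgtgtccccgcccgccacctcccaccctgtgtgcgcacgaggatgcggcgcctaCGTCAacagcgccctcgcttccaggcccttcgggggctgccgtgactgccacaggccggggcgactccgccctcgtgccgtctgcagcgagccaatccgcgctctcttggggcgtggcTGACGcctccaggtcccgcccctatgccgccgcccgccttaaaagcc
Both strands were searched for the letters of AP-1 (TGANTCA), NFAT (GGAAA), the E-box (CACGTG) and the TGACG core, none of which contains another. The Rgs2 stretch held 2 matches of TGACG, starting 185 and 67 bases before the start site, and none of the other motifs. The Rgs16 stretch held no match of any of the 4. Among 32851 promoters searched over the same window, 6.34% held the AP-1 letters, 52.6% the NFAT letters, 5.35% the E-box and 15.9% the TGACG core. A match is a description of the letters in this window, not a binding site.

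Total counts per library ran from 3085241 to 4239795, which gave the 7 genes between 751 (Rgs2) and 9965 (Rgs3) counts over the 18 libraries. All 7 were among the 13150 genes that passed the filter on low counts. Levels are CPM, the counts a gene would have in a library of 1000000 counts, as mean ± SD of 3 libraries where an SD is given. The sort was visible in Tnfrsf9, which averaged 389 ± 27.5 CPM in 41BB+ cells, against 6.74 ± 1.74 CPM in 41BB- cells at 0 h. By 24 h that order had turned, with 138 ± 9.88 CPM in 41BB+ cells, against 183 ± 11.3 CPM in 41BB- cells. Cd8a was at 323 to 699 CPM in every library and Cd4 at 4 counts or fewer. Cd8b1 was less even, at 399 ± 33.7 CPM in 41BB+ cells, against 878 ± 98.4 CPM in 41BB- cells at 0 h (log2 fold change -1.15, edgeR adjusted p = 2.01e-07). At 72 h Cd8b1 averaged 803 ± 158 CPM in 41BB+ cells, against 617 ± 131 CPM in 41BB- cells. Markers of myeloid cells summed to 68.4 CPM in replicate 2 of 41BB+ cells at 24 h, mostly Lyz2, and to 11.6 CPM or less in the other 17. Bulk libraries do not tell fewer cells of a type from less RNA per cell.

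By group mean, Rgs1 and Rgs16 were at their highest at 24 h in both populations, and Rgs2 was at its lowest at 72 h in both. Rgs3, Rgs10 and Rgs14 had their lowest means at 24 h in both populations, although the 24 h and 72 h libraries of 41BB- cells overlapped for Rgs3 and Rgs10. Rgs19 had the smallest ratio of highest to lowest group mean, with means from 53.1 to 85.7 CPM.

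**Figure D1:**
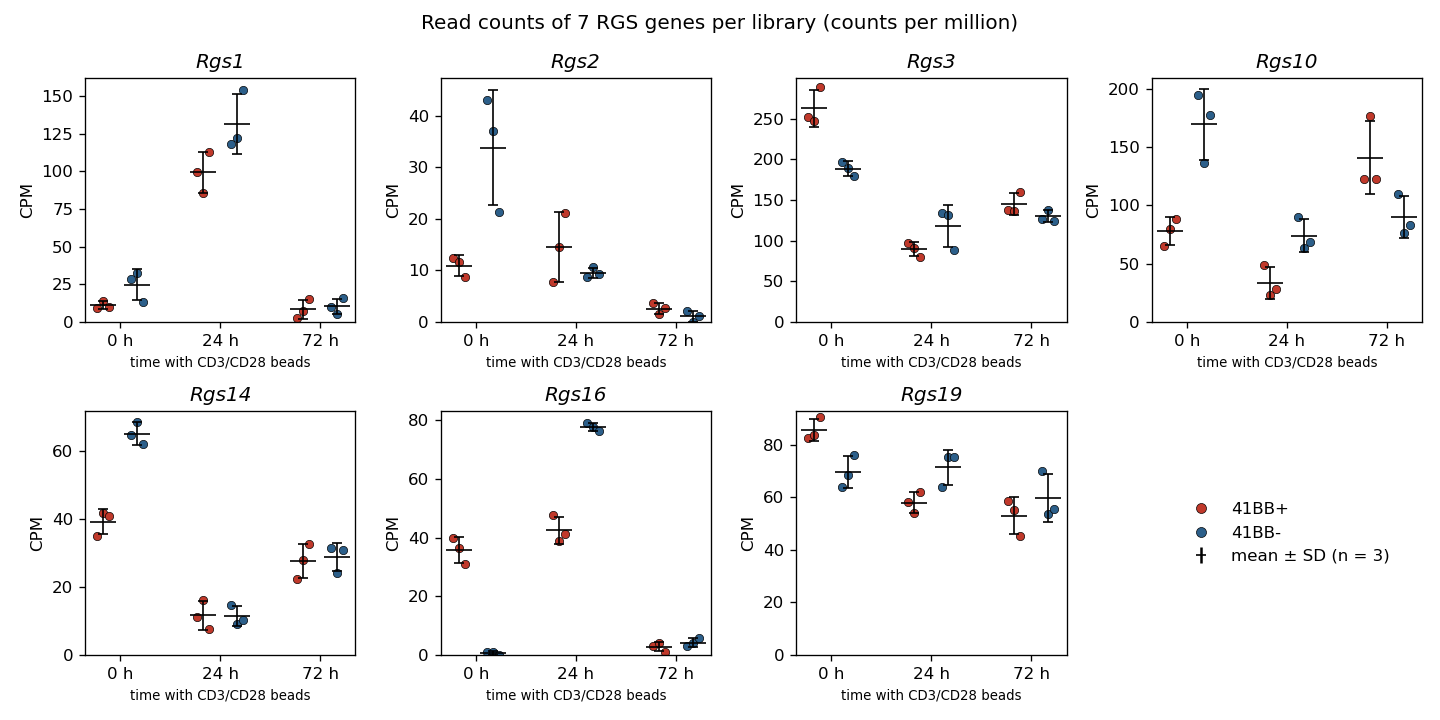
CPM of each of the 7 RGS genes in the 18 libraries, by time with the beads, with 41BB+ cells in red left of 41BB- cells in blue. Points are libraries and black marks are means with SD (n = 3). Rgs16 is near 0 in 41BB- cells at 0 h and highest in 41BB- cells at 24 h, and the 2 populations change places in Rgs10 between 24 h and 72 h.

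At 0 h Rgs16 had 39.8, 36.3 and 31.0 CPM in 41BB+ libraries, against 0.93, 0.972 and 0 CPM in 41BB- libraries. In reads this was 135, 127 and 118 counts in 41BB+ cells and 3, 3 and 0 counts in 41BB- cells, so the gene was close to undetected in 41BB- cells before activation. The ratio of the means was 56.3. The fitted log2 fold change was 5.75, beside 5.83 for Tnfrsf9 and 5.69 for Bcat1. Since this difference was used to choose the list, its size restates the choice and is not a separate result.

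The other R4 genes did not share this direction as a group at 0 h. Rgs2 had 12.4, 11.7 and 8.68 CPM in 41BB+ libraries, against 43.1, 37.0 and 21.4 CPM in 41BB- libraries, without overlap (log2 fold change -1.64). Rgs1 had 9.13, 14.0 and 9.99 CPM in 41BB+ libraries, against 28.2, 32.7 and 13.3 CPM in 41BB- libraries. The lowest 41BB- library lay within the range of the 41BB+ libraries, and the log2 fold change was -1.17. Rgs3, the R4 gene with the most counts, was the other one that was higher in 41BB+ cells, at 263 ± 23.0 CPM in 41BB+ cells, against 188 ± 9.14 CPM in 41BB- cells (log2 fold change 0.47, no overlap).

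Both R12 genes were lower in 41BB+ cells at 0 h, and the RZ gene was slightly higher. Rgs10 had 64.8, 79.5 and 88.6 CPM in 41BB+ libraries, against 195, 136 and 178 CPM in 41BB- libraries. Rgs14 averaged 39.3 ± 3.68 CPM in 41BB+ cells, against 65.2 ± 3.31 CPM in 41BB- cells. Neither gene's libraries overlapped between the populations, and the log2 fold changes were -1.14 for Rgs10 and -0.74 for Rgs14. Rgs19 averaged 85.7 ± 4.18 CPM in 41BB+ cells, against 69.6 ± 5.98 CPM in 41BB- cells (log2 fold change 0.29). Of all genes tested, 39.5% passed an adjusted p of 0.05 between the populations at 0 h, 22.2% higher and 17.3% lower in 41BB+ cells.

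The 0 h libraries also differed in immediate early genes, which are switched on within minutes of stimulation or handling. The 11 listed genes summed to 338 to 480 CPM in 41BB+ and to 961 to 1850 CPM in 41BB- libraries, and 8 of the 11 were lower in 41BB+ cells (median log2 fold change -1.76, against 0.01 over all genes), among them Btg2 (-1.76) and Dusp1 (-2.76). Of all genes 17.3% were lower at 0 h. At 72 h Btg2 and Zfp36 were higher in 41BB+ cells (0.87 and 0.60), Zfp36 with an edgeR adjusted p of 0.0477 that reached 0.118 without a library. The 41BB- library with the least immediate early RNA, replicate 3, was also the one with the lowest Rgs1 and Rgs2. The part of this difference in the values of Rgs1 and Rgs2 was not tested. Markers of B cells summed to 95.2 to 98.4 CPM in 41BB+ and 232 to 256 CPM in 41BB- libraries at 0 h, nearly all of it Ighm. Markers of dendritic cells summed to 11.2 to 35.0 CPM in 41BB+ and 8.45 to 10.8 CPM in 41BB- libraries. The part of these transcripts in the RGS values was not tested.

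After 24 h with the beads, 1 of the 7 genes passed the test between the populations, Rgs10. It had 49.0, 22.8 and 28.4 CPM in 41BB+ libraries, against 90.0, 63.6 and 68.2 CPM in 41BB- libraries. Every 41BB+ library lay below every 41BB- library, and the log2 fold change was -1.03 (SE 0.25, adjusted p = 0.0292, edgeR quasi-likelihood F-test). At this time 2.75% of all genes tested passed, 1.67% as higher and 1.07% as lower in 41BB+ cells. The call was lost when any library but replicate 1 of 41BB+ cells was left out, with adjusted p between 0.0584 and 0.168, while the log2 fold change stayed between -1.42 and -0.83. One of those 5 is the 41BB+ library with the myeloid transcripts, without which the adjusted p was 0.13.

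Rgs16, the gene with the largest excess in 41BB+ cells at 0 h among the 7, stood the other way round at 24 h. It had 47.6, 38.7 and 41.2 CPM in 41BB+ libraries, against 79.1, 77.8 and 76.4 CPM in 41BB- libraries. The groups did not overlap and the 41BB- libraries lay close together, but the fitted log2 fold change of -0.76 (95% interval -1.22 to -0.29) missed the threshold, with an adjusted p of 0.073 in edgeR. With the experiment number of the labels as a block within each time, the adjusted p was 0.0369, and with the block over all 18 libraries it was 0.0814. It also passed with DESeq2, limma voom, no filter on low counts and a fit of the 2 groups alone, whose adjusted p ran from 0.000558 to 0.0269. It missed the threshold in the fit without each library in turn (0.104 to 0.264).

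The remaining 5 genes did not pass at 24 h. Rgs2 averaged 14.5 ± 6.78 CPM in 41BB+ cells, against 9.54 ± 1.02 CPM in 41BB- cells, with 41BB+ libraries spread from 7.65 to 21.2 CPM around the 41BB- range (log2 fold change 0.72, 95% interval -0.10 to 1.53). Rgs1 had 99.2, 85.4 and 113 CPM in 41BB+ libraries, against 118, 122 and 154 CPM in 41BB- libraries, which do not overlap (log2 fold change -0.29, interval -1.04 to 0.45). Rgs3 averaged 89.4 ± 8.66 CPM in 41BB+ cells, against 118 ± 26.1 CPM in 41BB- cells (log2 fold change -0.29, adjusted p = 0.397 by the same edgeR test). Rgs14, at 11.7 ± 4.26 CPM in 41BB+ cells, against 11.4 ± 2.9 CPM in 41BB- cells, had overlapping libraries (log2 fold change 0.17), and its interval ran from -0.36 to 0.70. Rgs19 averaged 58.0 ± 3.9 CPM in 41BB+ cells, against 71.5 ± 6.66 CPM in 41BB- cells, again without overlap, with a log2 fold change of -0.19 and an interval of -0.48 to 0.11. Fitted fold changes use scaled library sizes (TMM), so they differ somewhat from ratios of CPM.

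**Figure D2:**
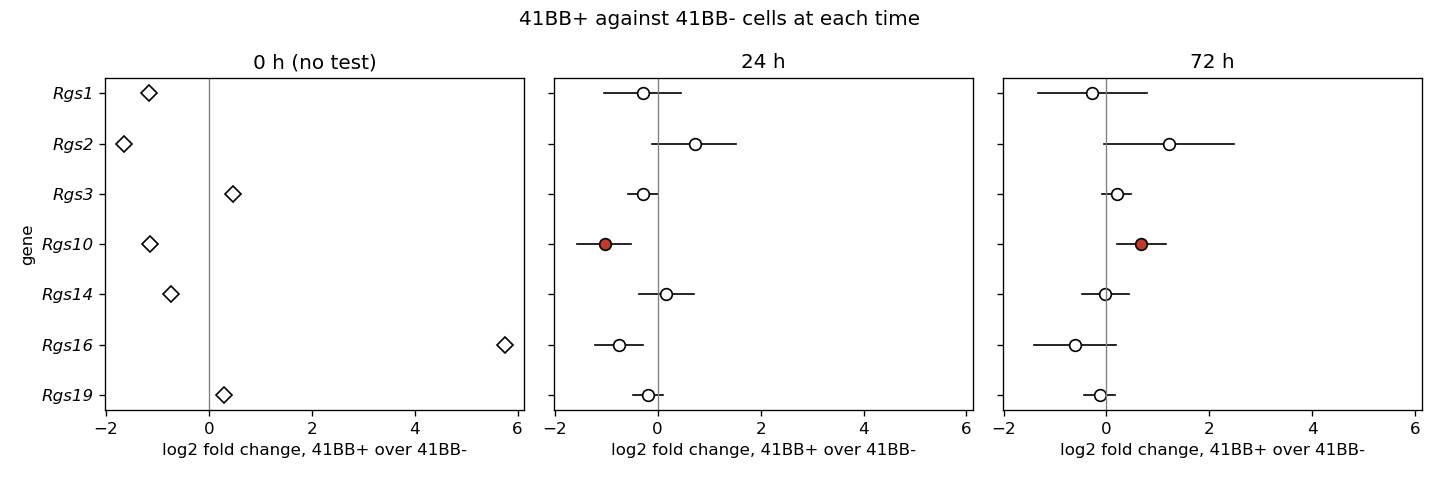
Fitted log2 fold change of 41BB+ over 41BB- cells for the 7 RGS genes at 0 h, 24 h and 72 h. Diamonds at 0 h carry no interval because that difference was used to choose the list, circles at 24 h and 72 h have 95% intervals, and filled circles passed the adjusted p of 0.05. Rgs10 is filled at both times, left of 0 at 24 h (-1.03) and right of 0 at 72 h (0.68).

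At 72 h Rgs10 was again the one gene of the 7 that passed, now higher in 41BB+ cells. It had 123, 177 and 123 CPM in 41BB+ libraries, against 110, 75.9 and 83.3 CPM in 41BB- libraries, with no overlap. The log2 fold change was 0.68 (SE 0.23, edgeR adjusted p = 0.0444). In this comparison 18.9% of all genes tested passed, 6.71% as higher and 12.2% as lower in 41BB+ cells, so 1 of 7 genes is near the background share. The call was lost without replicate 2 or 3 of 41BB+ cells (adjusted p = 0.152 and 0.0523, edgeR) and without replicate 2 or 3 of 41BB- cells (0.131 and 0.112), and the log2 fold change stayed between 0.55 and 0.91 over all 6 omissions. Foxp3, which marks regulatory T cells, was at 18.1 ± 7.87 CPM in 41BB+ cells, against 5.13 ± 2.41 CPM in 41BB- cells at 72 h, and its call was lost without 3 of the 6 libraries (edgeR adjusted p up to 0.102). Cd40lg, another gene of that list, passed the other way, at 0.918 ± 1.11 CPM in 41BB+ cells, against 4.21 ± 0.879 CPM in 41BB- cells (log2 fold change -2.12), a call lost without 5 of the 6 libraries. The 3 listed CD4 and regulatory T cell markers summed to 9.97 to 25.6 CPM in 41BB+ and 8.14 to 12.1 CPM in 41BB- libraries. The list of 7 CD8 T cell markers had 3 members higher at 72 h in 41BB+ cells. At 0 h it had 5 lower, where 17.3% of all genes were lower. The part of these transcripts in the Rgs10 values was not tested.

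Whether the Rgs10 difference between the populations changed from 24 h to 72 h was tested directly. This does not test a change of sign, which rests on the separate calls at 24 h and at 72 h. The difference at 72 h exceeded that at 24 h by 1.72 on the log2 scale (SE 0.34, interval 1.00 to 2.43), with an adjusted p of 0.00139 in the interaction test of the same edgeR fit. Of all genes tested 17.5% passed this interaction, 6.10% in the same direction and 11.4% in the other. The call held under each alternative run, the omission of each of the 12 libraries included, with log2 values from 1.57 to 2.16. Rgs3 came next among the 7, at 0.48 (interval 0.08 to 0.88, adjusted p = 0.0888, edgeR). Without replicate 1 of 41BB+ cells or replicate 3 of 41BB- cells at 24 h, Rgs3 also passed (adjusted p = 0.0451 and 0.00414, edgeR).

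For the other 6 genes at 72 h the populations were not separated by the test. Rgs16 had 3.02, 4.07 and 1.08 CPM in 41BB+ libraries, against 2.90, 4.07 and 5.66 CPM in 41BB- libraries, so the populations overlapped (log2 fold change -0.62, interval -1.41 to 0.18, which still holds the 24 h value of -0.76). Rgs2 was at 13, 5 and 10 counts in 41BB+ and 8, 0 and 5 counts in 41BB- libraries, too few to resolve a difference whose interval ran from -0.05 to 2.48. Rgs1 varied more between libraries of 1 group than between the populations, at 8.36 ± 6.42 CPM in 41BB+ cells, against 10.3 ± 5.04 CPM in 41BB- cells (interval -1.34 to 0.79). The means of Rgs3 were 145 ± 13.0 CPM in 41BB+ cells, against 130 ± 7.69 CPM in 41BB- cells (interval -0.08 to 0.47). Those of Rgs14 were 27.7 ± 5.05 CPM in 41BB+ cells, against 28.9 ± 4.13 CPM in 41BB- cells (interval -0.48 to 0.43), and those of Rgs19 were 53.1 ± 7.0 CPM in 41BB+ cells, against 59.7 ± 9.07 CPM in 41BB- cells (interval -0.43 to 0.16).

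Most of the genes changed with time under the beads. Between 0 h and 24 h, 6 genes were tested in each population, Rgs16 being left out. In 41BB+ cells 1 was higher and 4 were lower at 24 h, where 34.6% of all genes tested passed, 18.1% higher and 16.5% lower. In 41BB- cells 1 was higher and 4 were lower, where 56.6% of all genes passed, 29.0% higher and 27.6% lower. The comparisons over 0 h to 24 h and over 24 h to 72 h share the 24 h libraries, so a rise in one and a fall in the other are not independent.

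**Figure D3:**
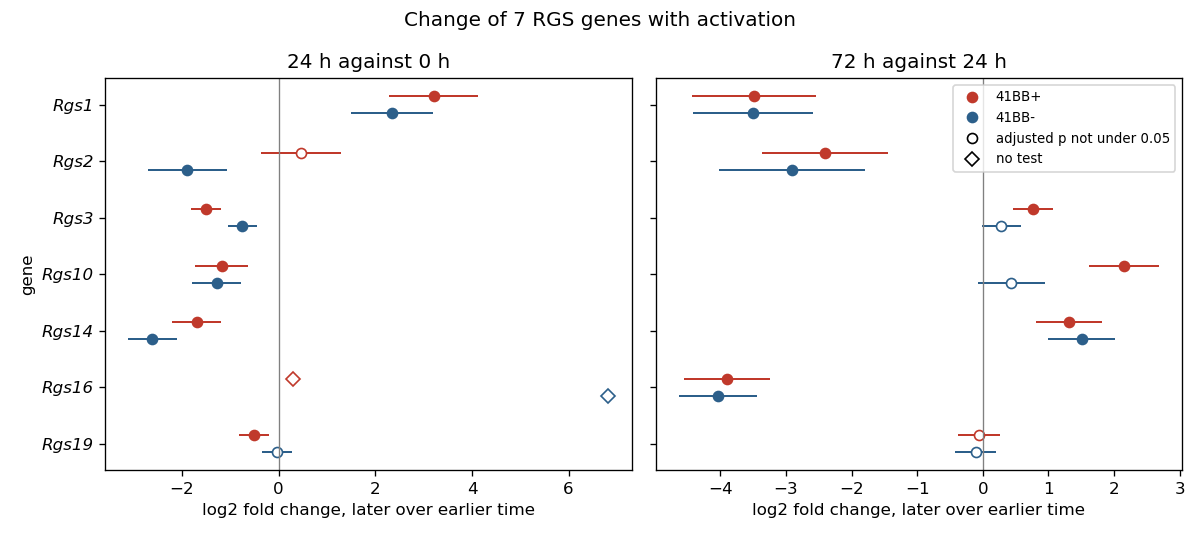
Fitted log2 fold change of the 7 RGS genes over 24 h against 0 h (left) and 72 h against 24 h (right), with 41BB+ cells in red above 41BB- cells in blue. Lines are 95% intervals, filled circles passed the adjusted p of 0.05, open circles did not, and diamonds (Rgs16, 24 h against 0 h) have no test. Rgs1, Rgs2 and Rgs16 lie far left of 0 between 24 h and 72 h in both populations, while Rgs10 lies at 2.15 in 41BB+ and 0.43 in 41BB- cells.

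Rgs1, which dampens chemokine receptor signals in lymphocytes, was the gene that was higher at 24 h in both populations. Its level was 99.1 ± 13.7 CPM at 24 h and 11.0 ± 2.61 CPM at 0 h in 41BB+ cells, a log2 fold change of 3.21 (SE 0.42, edgeR adjusted p = 2.25e-05). In 41BB- cells it was 131 ± 19.8 CPM at 24 h and 24.7 ± 10.2 CPM at 0 h, a log2 fold change of 2.34 (SE 0.39, edgeR adjusted p = 9.51e-05). Rgs1 then fell in both populations. Between 24 h and 72 h it had a log2 fold change of -3.48 in 41BB+ (edgeR adjusted p = 5.46e-06) and -3.50 in 41BB- cells (6.31e-06). The difference between these falls was 0.01 (interval -1.38 to 1.41).

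Rgs16 reached its highest level in 41BB- cells at 24 h, where it had been close to 0 before. The 41BB- mean was 77.8 ± 1.36 CPM at 24 h and 0.634 ± 0.549 CPM at 0 h, a ratio of 123. In 41BB+ cells, which already held Rgs16 RNA at 0 h, it was 42.5 ± 4.61 CPM at 24 h and 35.7 ± 4.4 CPM at 0 h, with overlapping libraries. These changes are described without a test. From 24 h to 72 h Rgs16 fell in both populations, with a log2 fold change of -3.89 (SE 0.31, adjusted p = 1.92e-11, edgeR) in 41BB+ and -4.04 (SE 0.28, adjusted p = 8.42e-12) in 41BB- cells. The 2 falls differed by 0.14 with an interval of -0.83 to 1.11.

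Rgs2, the regulator of the Gq class, was not called higher at 24 h in either population. In 41BB- cells it had 8.62 to 10.6 CPM at 24 h, against 21.4 to 43.1 CPM at 0 h, a log2 fold change of -1.89 (SE 0.39, edgeR adjusted p = 0.000175). In 41BB+ cells it was at 14.5 ± 6.78 CPM at 24 h and 10.9 ± 1.97 CPM at 0 h, and the log2 fold change of 0.47 did not pass (interval -0.34 to 1.27). Whether the 2 populations differed in this response was not tested, because that comparison holds the 0 h difference. Immediate early genes were mostly lower in 41BB- cells as well, with 9 of 11 lower and 1 higher at 24 h than at 0 h. Over all genes these shares were 27.6% and 29.0%. In 41BB+ cells 3 of 11 were lower and 3 higher, against 16.5% and 18.1% of all genes. The median log2 fold change of the 11 was -2.55 in 41BB- and -0.50 in 41BB+ cells, against -0.07 and -0.06 over all genes. The part of the immediate early genes in the Rgs2 values was not tested. Rgs2 then fell in both populations by 72 h, with a log2 fold change of -2.41 in 41BB+ (SE 0.46, adjusted p = 7.33e-05, edgeR) and -2.90 in 41BB- cells (SE 0.53, adjusted p = 6.92e-05). Over the same interval 7 of the 11 immediate early genes were lower in 41BB+ cells (median log2 fold change -2.00, against 0.03 over all genes). In 41BB- cells 6 of 11 were lower (-1.68, against 0.04). Of all genes 26.3% were lower in 41BB+ and 18.2% in 41BB- cells. The part of the immediate early genes in the fall of Rgs2 was not tested either.

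Rgs3, Rgs10 and Rgs14 were lower at 24 h than at 0 h in both populations. The log2 fold change of Rgs14 was -1.69 (SE 0.24) in 41BB+ and -2.61 (SE 0.24) in 41BB- cells, with edgeR adjusted p of 1.66e-06 and 2.13e-10. That of Rgs3, whose transcripts encode short and long proteins, was -1.51 in 41BB+ and -0.75 in 41BB- cells (SE 0.14 each, edgeR adjusted p = 8.74e-10 and 2.96e-05). That of Rgs10 was -1.18 (SE 0.25) in 41BB+ and -1.28 (SE 0.23) in 41BB- cells, with edgeR adjusted p of 0.0011 and 0.000114. Rgs19 was the fourth gene that fell in 41BB+ cells (log2 fold change -0.51, SE 0.14, edgeR adjusted p = 0.00601). This call was lost without replicate 3 at 0 h (0.0602) or replicate 2 at 24 h (0.0679). In 41BB- cells the log2 fold change of Rgs19 was -0.04 (interval -0.33 to 0.26).

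From 24 h to 72 h the same 3 genes rose in 41BB+ cells. Rgs10 was at 141 ± 31.0 CPM at 72 h and 33.4 ± 13.8 CPM at 24 h in 41BB+ cells, a log2 fold change of 2.15 (SE 0.25, edgeR adjusted p = 5.02e-07). In 41BB- cells it was at 89.8 ± 18.2 CPM at 72 h and 73.9 ± 14.1 CPM at 24 h, and the log2 fold change of 0.43 did not pass (interval -0.06 to 0.93). Rgs14 rose by a log2 fold change of 1.31 in 41BB+ and 1.51 in 41BB- cells (SE 0.24 each, edgeR adjusted p = 3.74e-05 and 9.36e-06). Rgs3 rose by 0.77 in 41BB+ cells (SE 0.14, adjusted p = 3.03e-05, edgeR), and in 41BB- cells its log2 fold change of 0.28 did not pass (adjusted p = 0.0991, edgeR). Rgs19 passed in neither population. In all, 3 of 7 genes were higher and 3 lower at 72 h than at 24 h in 41BB+ cells, where 52.5% of all genes passed, 26.2% higher and 26.3% lower. In 41BB- cells 1 was higher and 3 were lower, where 40.8% of all genes passed, 22.6% higher and 18.2% lower. Between 0 h and 24 h, 16.5% of all genes were lower in 41BB+ and 27.6% in 41BB- cells. Of Rgs3, Rgs10 and Rgs14, only Rgs14 passed as higher at 72 h than at 24 h in 41BB- cells. The list of CD8 T cell markers had 7 of 7 lower at 24 h than at 0 h in each population. From 24 h to 72 h, 6 of the 7 markers on this list were higher in each population. Its sum ran from 1230 to 1350 CPM in 41BB+ and 1630 to 1690 CPM in 41BB- libraries at 24 h, and from 2440 to 2800 CPM in 41BB+ and 1970 to 2430 CPM in 41BB- libraries at 72 h. Its part in the RGS values was not tested.

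Ordered by mean level, the 6 groups gave a different order for each of the 7 genes. For Rgs1 both 24 h groups came first, 41BB- cells ahead of 41BB+ cells and each apart from the next, and the other 4 groups overlapped from one to the next. For Rgs2 the 41BB- cells at 0 h stood apart at the top and both 72 h groups apart at the bottom. For Rgs16 the order was 41BB- cells at 24 h, 41BB+ at 24 h, 41BB+ at 0 h, 41BB- at 72 h, 41BB+ at 72 h and 41BB- at 0 h. In it, the 2nd and 3rd groups overlapped, as did the 4th and 5th. For Rgs10 it was 41BB- at 0 h, 41BB+ at 72 h, 41BB- at 72 h, 41BB+ at 0 h, 41BB- at 24 h and 41BB+ at 24 h. Here the last group stood apart from its neighbour, and the pair at the top overlapped, as did the 3 groups in the middle from one to the next. For Rgs3 and Rgs14 the 0 h groups came first, each apart from the next, with 41BB+ cells leading in Rgs3 and 41BB- cells in Rgs14. For Rgs19 the 41BB+ cells at 0 h stood apart from the other 5 groups, each of which overlapped its neighbour.

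Levels were set side by side between genes as CPM per kilobase of merged exons (RPKM). The 7 genes summed to 137 ± 8.82 RPKM in 41BB+ and 176 ± 16.7 RPKM in 41BB- cells at 0 h, to 93.0 ± 10.3 RPKM in 41BB+ and 144 ± 5.93 RPKM in 41BB- cells at 24 h, and to 129 ± 18.5 RPKM in 41BB+ and 102 ± 15 RPKM in 41BB- cells at 72 h. Rgs10 made up 32.9% ± 3.08 of this sum in 41BB+ and 56.0% ± 5.25 in 41BB- cells at 0 h. At 24 h its share was 20.6% ± 6.3 in 41BB+ and 29.9% ± 4.41 in 41BB- cells, and at 72 h it was 63.3% ± 4.62 in 41BB+ and 51.4% ± 2.71 in 41BB- cells. By mean, Rgs10 held the largest share in every group but 41BB+ cells at 24 h, where Rgs19 held 28.1% ± 2.49. Rgs16 made up 11.2% ± 2.08 in 41BB+ and 0.156% ± 0.138 in 41BB- cells at 0 h, and 19.5% ± 0.602 in 41BB+ and 23.2% ± 0.712 in 41BB- cells at 24 h. With the length of the longest coding transcript instead, the shares of Rgs16 were 6.45% in 41BB+ and 0.0849% in 41BB- cells at 0 h and 12.2% in 41BB+ and 14.4% in 41BB- cells at 24 h, and Rgs19 led Rgs10 in 41BB+ cells at 24 h by 25.9% to 24.9%. Rgs3, which had the most counts of the 7, is also the longest and made up 7.59% to 17.7% of the sum.

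**Figure D4:**
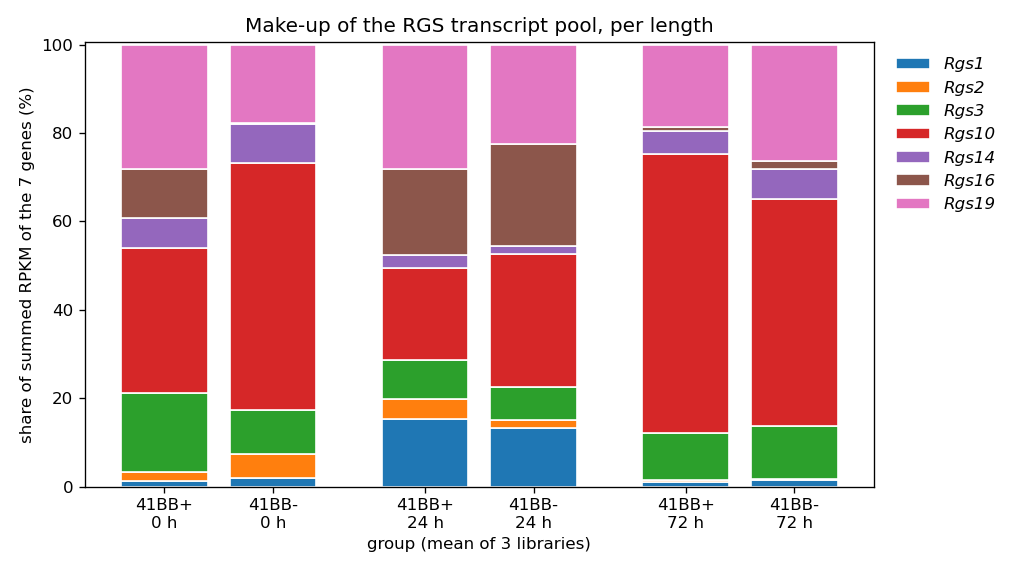
Share of each of the 7 genes in their summed RPKM (CPM per kilobase of merged exons), as the mean of 3 libraries per group, with 41BB+ left of 41BB- at each time. Rgs10 (red) takes 56.0% in 41BB- cells at 0 h and 63.3% in 41BB+ cells at 72 h, and Rgs16 takes 19.5% in 41BB+ and 23.2% in 41BB- cells at 24 h.

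The 14 other RGS genes of the annotation were scarce in these cells. Of these, 8 did not pass the filter on low counts and had at most 14 counts in any library, among them Rgs13, Rgs18 and Rgs21, the neighbours of Rgs1 and Rgs2. The 6 tested were Rgs6, Rgs7, Rgs9 and Rgs11 of the R7 subfamily, Rgs12 of the R12 subfamily and Rgs20 of the RZ subfamily. Rgs11 had 0.549, 3.20 and 0.539 CPM in 41BB+ libraries at 72 h, against 2.37, 4.36 and 19.6 CPM in 41BB- libraries, and passed as lower in 41BB+ cells (log2 fold change -2.60, SE 0.75, edgeR adjusted p = 0.0139). That call was lost without replicate 3 of 41BB- cells (log2 fold change -1.14, edgeR adjusted p = 0.399) and without replicate 1 or 3 of 41BB+ cells (0.0718 and 0.0748). It was also lost with limma voom (adjusted p = 0.122) and in the edgeR fit of the compared groups alone (0.0718). At 0 h Rgs11 was at 2.89 ± 0.527 CPM in 41BB+ cells, against 9.45 ± 0.952 CPM in 41BB- cells, with an adjusted p of 0.0509 (edgeR). Rgs6, Rgs7, Rgs9, Rgs12 and Rgs20 passed in no comparison of the populations. Between 0 h and 24 h, Rgs11 fell in both populations, with a log2 fold change of -2.31 in 41BB+ (edgeR adjusted p = 0.0458) and -3.69 in 41BB- cells (0.000347). Rgs20 fell in 41BB+ cells (-3.03, edgeR adjusted p = 0.0287), as did Rgs6 in 41BB- cells (-1.75, 0.0361). From 24 h to 72 h Rgs11 rose in 41BB- cells (3.67, edgeR adjusted p = 0.00058), and by 2.22 without the replicate 3 library. The calls of the 0 h to 24 h change of Rgs11 in 41BB+ cells, Rgs20 and Rgs6 were each lost on leaving out at least 5 of the 6 compared libraries in turn. With the experiment number as a block over all libraries, the adjusted p of this Rgs11 change was 0.051.

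A further list held other RGS-domain or GoLoco proteins, alpha subunit chaperones, and Gnb5, Rgs7bp and Rgs9bp, which are partners of R7 proteins. Of its 15 tested genes, 8 were lower in 41BB+ cells at 0 h and none higher, where 17.3% of all genes were lower and 22.2% higher (median log2 fold change -0.60, against 0.01 over all genes). At 72 h 4 of the 15 were higher in 41BB+ cells and none lower, where 6.71% of all genes were higher and 12.2% lower (median 0.21, against -0.04 over all genes). Axin2, a scaffold of the beta-catenin destruction complex with an RGS domain, was at 13.5 ± 0.902 CPM in 41BB+ cells, against 63.4 ± 9.41 CPM in 41BB- cells at 0 h (log2 fold change -2.23, edgeR adjusted p = 5.01e-10). Arhgef11, an RGS-domain exchange factor for RhoA, was at 4.87 ± 2.34 CPM in 41BB+ cells, against 17.5 ± 4.55 CPM in 41BB- cells at 24 h (log2 fold change -1.72, adjusted p = 0.00293, edgeR), and its log2 fold change at 0 h was -2.28. Snx13 and Arhgef12, which also carry RGS domains, were higher in 41BB+ cells at 72 h, with log2 fold changes of 0.82 and 0.92 (edgeR adjusted p = 0.00141 and 0.00193).

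Of 10 tested alpha subunits, the substrates of RGS proteins, 2 were lower in 41BB+ cells at 0 h and none higher. Over all genes 39.5% passed at 0 h and 17.3% were lower, so the count of lower subunits is near the background share. These 0 h calls were Gnai2, the main inhibitory alpha subunit of lymphocytes, at 238 ± 25.4 CPM in 41BB+ cells, against 373 ± 34.8 CPM in 41BB- cells (log2 fold change -0.66, edgeR adjusted p = 1.77e-05), and Gna15, a Gq-class subunit of blood cells (log2 fold change -1.46). At 72 h 0 of the 10 passed in edgeR, DESeq2 or limma voom, where 18.9% of all genes passed in edgeR. Of the 10, 2 had an unadjusted edgeR p under 0.05. Of 6 listed beta and gamma subunits that were tested, Gng2 was lower in 41BB+ cells at 0 h (log2 fold change -0.94) and Gnb1 at 72 h (-0.36). Over all genes 17.3% were lower at 0 h and 12.2% at 72 h, so 1 of 6 is near the background share. Gng2 lost its call without 1 of the 6 libraries (edgeR adjusted p = 0.0558), and Gnb1 lost its call whichever of the 6 libraries was left out (0.0582 to 0.138).

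Among receptors, 16 of 27 chemoattractant and lipid receptors, most but not all of them Gi-coupled, were tested. Of the 16, 1 was higher and 5 were lower in 41BB+ cells at 0 h. None was higher and 1 lower at 24 h, and 4 were higher and 2 lower at 72 h. Over all genes 39.5% passed at 0 h, 2.75% at 24 h and 18.9% at 72 h, so the 0 h count of both directions together is near the background share. By direction, 17.3% of all genes were lower and 22.2% higher at 0 h, and 12.2% were lower and 6.71% higher at 72 h. The median log2 fold change of the 16 was -0.28 at 0 h, -0.41 at 24 h and -0.28 at 72 h, against 0.01, 0.02 and -0.04 over all genes. S1pr1, the sphingosine 1-phosphate receptor that lets T cells leave lymphoid organs, passed at all 3 times, lower in 41BB+ cells at 0 h and 24 h and higher at 72 h. It averaged 61.1 ± 4.7 CPM in 41BB+ cells, against 390.0 ± 35.6 CPM in 41BB- cells at 0 h, 15 ± 8.47 and 46.8 ± 6.63 CPM in 41BB+ and 41BB- cells at 24 h, and 206 ± 58.0 and 93.7 ± 14.4 CPM in 41BB+ and 41BB- cells at 72 h. The log2 fold changes were -2.69, -1.54 and 1.17, with edgeR adjusted p of 8.43e-07, 0.0162 and 0.00489 at 0 h, 24 h and 72 h, and the 24 h call was lost without some of the libraries (up to 0.0689). Ccr7, the homing receptor for lymph nodes, was lower in 41BB+ cells at 0 h (log2 fold change -1.27, edgeR adjusted p = 1.13e-07). Ccr4 was lower in 41BB+ cells at 72 h (log2 fold change -1.83). S1pr4, another sphingosine 1-phosphate receptor, was higher in 41BB+ cells at 72 h (log2 fold change 0.58), with an edgeR adjusted p of 0.0239 that reached 0.099 when a library was left out. Ccr6, the 1 receptor higher at 0 h, was scarce, at 1.64 ± 1.65 CPM in 41BB+ cells, against 0.101 ± 0.174 CPM in 41BB- cells, and its call was lost without 2 of the 6 libraries (up to 0.148).

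Of 6 tested receptor kinases and arrestins, which act mainly on the receptors themselves, 4 were lower in 41BB+ cells at 0 h, among them Arrb2 (log2 fold change -1.08) and Grk6 (-0.67), where 17.3% of all genes were lower. At 72 h Grk2 was higher (0.40) and Arrb1 lower (-1.40) in 41BB+ cells. Of 17 tested effectors, 8 were lower and none higher at 0 h, and at 72 h 3 were higher and 1 was lower. Over all genes 39.5% passed at 0 h and 18.9% at 72 h, so the 72 h count of both directions together is near the background share. By direction, 17.3% of all genes were lower and 22.2% higher at 0 h, and 12.2% were lower and 6.71% higher at 72 h. Pik3r5, the regulatory partner of the phosphoinositide 3-kinase driven by beta and gamma subunits, was lower at 0 h (log2 fold change -1.57, edgeR adjusted p = 9.16e-09) and higher at 72 h (0.69, edgeR adjusted p = 0.00202) in 41BB+ cells. Prex1, an exchange factor for Rac driven by beta and gamma subunits, was lower at 0 h (log2 fold change -1.19, edgeR adjusted p = 1.28e-07). At 72 h Adcy7, an adenylyl cyclase, was higher (0.60, edgeR adjusted p = 0.00861), and Prkaca, a catalytic subunit of protein kinase A, was lower (-0.70, 0.0173, but up to 0.149 without a library). At 24 h 0 of these 17 effectors, 6 kinases and arrestins and 16 subunits passed in edgeR, when 2.75% of all genes did. Of these 39 genes 7 had an unadjusted edgeR p under 0.05, 2 passed in DESeq2 and 1 in limma voom.

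For each of the 7 genes, the pair of genes with the closest course over the 18 libraries was taken from 9084 named genes, by the root mean square difference of centred log2(CPM + 1) values. Rgs10 was nearest to Vsir (0.309), which encodes the coinhibitory receptor VISTA, and to St8sia1 (0.313), where the median gene lay at 0.945. Vsir averaged 55.7 CPM in 41BB+ cells, against 134 CPM in 41BB- cells at 24 h, and 258 CPM in 41BB+ cells, against 130.0 CPM in 41BB- cells at 72 h. Rgs16 was nearest to Fosl1 (0.539), a subunit of AP-1, and Spry1 (0.593), an inhibitor of receptor tyrosine kinase signalling, against a median of 2.14. Fosl1 averaged 9.01 CPM in 41BB+ cells and had no count in 41BB- cells at 0 h. Rgs2 was nearest to the immediate early phosphatase gene Dusp1 (0.63) and to Ext1 (0.68). The remaining nearest genes were Fcrl1 and Gbp5 for Rgs1 (0.701 and 0.723), Itgb2 and Parp3 for Rgs3 (0.163 and 0.201), Stk17b and Shisa5 for Rgs14 (0.274 and 0.287), and Zap70 and Txndc11 for Rgs19 (0.139 and 0.146). The measure says how alike the courses are over libraries that share groups and depth, and nothing of shared control.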

How the data were processed

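Per the labels' protocols, total RNA was turned into libraries with Takara's SMARTer Stranded kit. FastQC 0.11.9, Trimmomatic 0.38, HISAT2 2.2.1, featureCounts and GRCm38 are named in the submitters' processing notes. Not given in the sources used here are the release of the gene annotation, whether counting used strand, and how multi-mapping reads were counted. The authors deposited whole-number read counts per Ensembl gene, 1 column per library, without normalization. GENCODE M21 gave symbols to 55141 of the 55487 identifiers, and to all 7 RGS genes. Median depth was 3524157.5 counts, and no molecular identifiers were used. Replicates differed from each other by more than sampling noise (chi-square per degree of freedom 4.557 to 8.897), so none was a copy. Where replicates came from 1 source, p-values measure only the spread between these samples.

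Counts were tested with edgeR 4.0.16 in R 4.3.3 (filterByExpr by group with minimum count 10 and minimum total 15, TMM, robust quasi-likelihood F-test, 1 mean per group over all 18 libraries, Benjamini-Hochberg adjustment over 13150 genes, threshold 0.05). The common biological coefficient of variation was 0.18. The SE is the log2 fold change divided by the square root of F, and intervals are 95%. The procedure was tested on simulated data. A positive log2 value is an excess in 41BB+ cells or at the later time. CPM are counts over the library total, and RPKM divide them by merged exon length.

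The experiment number in the titles was taken as pairing the populations. Deviations from the group means correlated at a median of 0.108 within the 9 pairs of equal number (-0.00287 to 0.255) and -0.0664 within the 18 pairs of unequal number. Deviations within a group cancel out, so positive values in pairs of equal number push those of unequal number to negative values. The medians are thus not independent and do not decide the pairing. Alternatives were DESeq2 1.42.0, limma 3.58.1 voom, RLE factors, no filter, the experiment block, the compared groups alone, each library left out, and, added after seeing the data, another gene length for RPKM. The RGS genes and the pathway and marker lists were chosen with earlier results of these data known. All 7 RGS genes and the other tested RGS genes are named. From each pathway list up to 2 genes past the threshold per direction and population comparison are named by smallest adjusted p, and for each RGS gene the 2 with the closest course. One gene that this rule names is not reported here.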

Additional observations from a re-analysis of the deposited data

Results flagged for a closer look

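Rgs10 differed between the populations in opposite directions over time. The difference at 72 h minus that at 24 h was 1.72 on the log2 scale, with an adjusted p of 0.00139 in the edgeR interaction test. That test does not cover the change of sign. The separate calls at 24 h and at 72 h were each lost without some of the libraries. Every 41BB+ library lay below every 41BB- library at 0 h (log2 fold change -1.14) and at 24 h (-1.03), and every 41BB+ library lay above at 72 h (0.68). The difference between 0 h and 72 h was not tested, since the 0 h values were used to choose the genes.

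Rgs16 had every 41BB+ library above every 41BB- library at 0 h (log2 fold change 5.75) and below at 24 h (-0.76). Rgs19 showed the same order on a small scale, with 0.29 at 0 h and -0.19 at 24 h. The 24 h difference passed the edgeR test for neither gene (adjusted p = 0.073 for Rgs16 and 0.696 for Rgs19). Whether the difference changed between 0 h and 24 h was not tested for either gene. The share of all genes whose libraries separate in this way is not given here. The separations of Rgs10, Rgs16 and Rgs19 are thus a description without that baseline.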

How the results depend on the processing

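Of 47 results of single RGS genes with a test, 33 kept their direction and their side of the threshold under every alternative run, 9 changed direction (all of them short of the threshold), 3 lost and 2 gained a call. The number of genes past the threshold between the populations at 24 h was 2, in place of 1, with DESeq2, no filter on low counts, the replicate block within time, limma voom and the compared groups alone, Rgs16 being the gene gained. Leaving out 1 library at a time gave 0 to 1 at 24 h, 0 to 1 at 72 h and 1 to 2 in the interaction. The replicate block over all libraries changed no call of the 7 genes. The block changed no call of the named pathway genes either.

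The direction of these differences was not fixed. At 24 h Rgs14 ran from -0.15 to 0.41 without a library. At 72 h Rgs1 ran from -1.03 to 0.23. Rgs14 at 72 h gave 0.0044 with DESeq2, 0.0045 with RLE factors, 0.02 without the filter, 0.04 with the compared groups alone and -0.12 to 0.17 without a library. Rgs19 reached 0.05 at 72 h. Rgs19 between 0 h and 24 h in 41BB- cells gave 0.05 without the filter and -0.06 to 0.08 without a library, and between 24 h and 72 h in 41BB+ cells -0.13 to 0.04. In the interaction, Rgs1 gave -0.0039 with the replicate block, -0.30 with limma voom and -0.74 to 0.53 without a library, Rgs14 -0.38 to 0.18, and Rgs16 -0.19 to 0.58. The causes were not tested. Rgs2 at 72 h gave no value in the fit of the compared groups alone, since it did not pass the filter there. Counts under 15 in every library limit what can be said of Rgs2 at 72 h in both populations. The same limit applies to Rgs16 at 72 h in 41BB+ cells.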
